A study of Mus musculus with 9 samples.

Results

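CASIN is a small molecule that inhibits the activity of Cdc42, a small GTPase that cycles between a GTP-bound active and a GDP-bound inactive form and that organises cell polarity. The comparison described here is that of LSK cells from aged mice given CASIN with LSK cells from aged control mice. LSK cells (Lin- cKit+ Sca1+) are the bone marrow fraction that holds the hematopoietic stem cells and the multipotent progenitors. The members are the 3 CASIN and the 3 aged libraries of single-cell RNA sequencing, taken by their labels, with the barcodes that had 1000 to 40000 unique molecular identifiers (UMIs, each counted as 1 RNA molecule), at most 6000 genes and at most 10% mitochondrial UMIs. They were 10394 of the 15975 cells that passed these limits in the whole series, namely 5362 CASIN and 5032 aged cells. UMIs were summed over the kept cells of each library, so that libraries and not cells were the replicates, and CASIN was compared with aged in a model with the sequencing batch as a term.

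All mice were C57BL/6. CASIN mice were older than 80 weeks and received 4 intraperitoneal injections of 25 mg/kg, 24 h apart, in cyclodextrin, and cells were harvested on day 5. Aged controls were of the same age and received cyclodextrin alone, as did the young controls of 10 to 12 weeks, whose 3 libraries entered the model and are given where they bear on a value. The sorted cells had been frozen and thawed, and each sample became 1 library of 10x Genomics 3′ chemistry. The labels do not say whether a sample held 1 mouse or several, so that p-values measure the spread between these samples. The model has no term for a CASIN difference that changes with the batch, so any such change adds to that spread.

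Cdc42 acts through effector kinases and scaffolds (the Pak kinases, the Was and Wasl nucleators of actin, the Par6 polarity complex, the Iqgap scaffolds), is switched on by exchange factors such as those of the Dock, Fgd and Vav families and is switched off by GTPase-activating proteins such as Arhgap1. CASIN acts on the activity of the protein, and an RNA count does not measure that activity. Immediate early genes are transcription factors and feedback regulators that cells transcribe within minutes of a stimulus, without new protein synthesis. They respond to growth factors and cytokines, and in bone marrow cells also to tissue handling.

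The libraries differed in depth and in what the limits removed. The kept cells held 18389218, 22489668 and 21433702 UMIs in aged replicates 1, 2 and 3 and 17562903, 20176193 and 28345634 UMIs in CASIN replicates 1, 2 and 3. Batch 1 held aged replicate 1 and CASIN replicates 1 and 2, and batch 2 held aged replicates 2 and 3 and CASIN replicate 3, so that within each batch 1 side of the comparison is a single library. Of the barcodes, 76.6%, 31.8% and 32.4% were kept in the aged and 56.7%, 72.8% and 37.4% in the CASIN libraries. Barcodes above 10% mitochondrial UMIs were 21.8%, 66.8% and 65.7% in the aged and 40.6%, 24.5% and 62.0% in the CASIN libraries. This share was thus highest in batch 2, and its part in the differences given below was not tested. A kept cell held a median of 10788.8 ± 623 UMIs in aged and 11187.5 ± 2352.5 UMIs in CASIN libraries (mean of the library medians, SD, n = 3; two-sided exact permutation test, p = 1), and a median of 3070 and 3076.2 genes (exact permutation p = 1). The mitochondrial share of a kept cell was 5.43% ± 1.81 in aged and 4.36% ± 1.67 in CASIN libraries (SD, n = 3; exact permutation p = 0.6). With 3 libraries against 3, this test cannot give a p below 0.1. These means and tests leave the batch out. Within batches 1 and 2, CASIN minus aged was 1193.2 and -799.2 in median UMIs, 205.8 and -166.5 in median genes and -0.036 and -0.14 percentage points in the mitochondrial share. At most 7 kept barcodes were shared by any pair of the 6 libraries. The batches differed in sex-linked RNA: Xist, the RNA that silences an X chromosome in female cells, was at 0.167 CPM (the level of a gene scaled to a common library size, with TMM normalization) in aged replicate 1 and at 0.114 and 0.101 in CASIN replicates 1 and 2, but at 2648 and 2686 CPM in aged replicates 2 and 3 and at 2410 CPM in CASIN replicate 3, while Uty of the Y chromosome was at 16.4 to 18.2 CPM in batch 1 and at most 0.0461 CPM in batch 2. The sequencing batch and the sex of the cells cannot be told apart. B cell and plasma cell genes had a summed level of 619, 9358 and 19148 CPM in aged and 344, 7762 and 11358 CPM in CASIN libraries. They were high in all libraries of batch 2 and also in CASIN replicate 2 of batch 1.

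The genes of the sort were found in all 6 libraries. Kit, the receptor behind cKit, was at 231, 109 and 125 CPM in aged and at 201, 221 and 118 CPM in CASIN libraries (log2 fold change 0.01, 95% interval -0.33 to 0.34). Ly6a, which encodes Sca1, was at 154, 141 and 163 CPM in aged and at 150, 209 and 156 CPM in CASIN libraries (0.07, -0.28 to 0.42). Of the lineage genes, Itgam was between 3.68 and 8.71 CPM and Cd5 between 0.455 and 1.16 CPM in the 6 libraries. Cd8a had 1 UMI in all of them.

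No gene passed the test between CASIN and aged cells. Of 13696 genes tested, 0 had an adjusted p below 0.05 in edgeR's quasi-likelihood test with Benjamini-Hochberg adjustment (0% higher and 0% lower in CASIN), and the smallest adjusted p was 0.986. At an unadjusted p below 0.05 there were 441 genes, of which 199 (1.45%) were higher and 242 (1.77%) lower in CASIN cells. The median size of the log2 fold change was 0.12, against 0.19 for aged against young in the same model, where 454 genes (3.31%) passed the test as higher in aged cells and 63 as lower. Between CASIN and young cells 462 genes (3.37%) passed as higher in CASIN. The 2 contrasts with young share the young libraries, and the aged libraries enter 2 of the 3 contrasts. The data bound most differences, taken as 1 value over both batches. For a gene whose difference varied between the batches, the interval does not bound the difference in either batch. The 95% interval lay within a log2 fold change of 1 in either direction for 11090 genes (81.0%), and within 0.5 for 6955 genes (50.8%), or for 85.7% of the 1294 genes with at least 100 CPM. In whole profiles, an aged and a CASIN library of the same batch differed by a root mean square of 0.23 to 0.40 on the log2 scale, over genes of at least 10 CPM. Pairs of libraries of the same group and batch differed by 0.18 to 0.33. Of the 4 pairs of aged and CASIN libraries, 3 lay within that range and aged replicate 2 against CASIN replicate 3, at 0.40, lay above it. Libraries of different batches differed by 0.95 to 1.15. In these sums, fewer cells of a type and less RNA per cell cannot be told apart.

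Cdc42 RNA itself (chr4:137319696-137357720 on the minus strand of GRCm38) was nearly level across the series. It was at 387, 386 and 385 CPM in aged libraries and at 356, 369 and 366 CPM in CASIN libraries (385.8 ± 0.982 and 363.4 ± 6.57 CPM, SD, n = 3), with 380, 373 and 354 CPM in the young. All CASIN values lay below all aged values, as they did for 1.1% of the genes tested, and the log2 fold change was -0.09 (standard error 0.06, 95% interval -0.24 to 0.05, unadjusted p = 0.177 in edgeR), a bound of less than 0.25 on the log2 scale. Arhgap1, the GTPase-activating protein that ends Cdc42 signalling, was at 23.3, 23.7 and 25.3 CPM in aged and at 21.4, 20.9 and 26.8 CPM in CASIN libraries (log2 fold change 0.02, 95% interval -0.21 to 0.25).

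The regulators and effectors of Cdc42 lay around 0 as groups. Of 28 regulators, 15 had a negative and 13 a positive log2 fold change, with a median of -0.02, and of 32 tested effectors, 14 were negative and 18 positive, with a median of 0.02. The median over all genes was -0.01. None of these regulators and effectors had an unadjusted p below 0.05. The regulators with the smallest p in each direction were Arhgap21, a GTPase-activating protein (log2 fold change 0.22 ± 0.11, standard error, unadjusted p = 0.0796), and the exchange factor Fgd2 (-0.41 ± 0.31, unadjusted p = 0.213). Among the effectors they were Diaph3, a formin that extends actin filaments (-0.21 ± 0.12, unadjusted p = 0.126), and the scaffold Iqgap2 (0.10 ± 0.08, unadjusted p = 0.24), all from edgeR. The widest intervals belonged to genes of few counts. Genes of the actin and tubulin cytoskeleton were bounded more tightly, with a median of -0.04 over 26 genes and 25 intervals within 0.5. The monomer-binding protein Pfn1 was at 1109, 726 and 666 CPM in aged and at 1035, 1034 and 657 CPM in CASIN libraries (-0.09 ± 0.06). For the nuclear lamina and the H4K16 acetylation machinery, the median of 17 genes was -0.07 and all 17 intervals lay within 1.

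**Figure D1:**
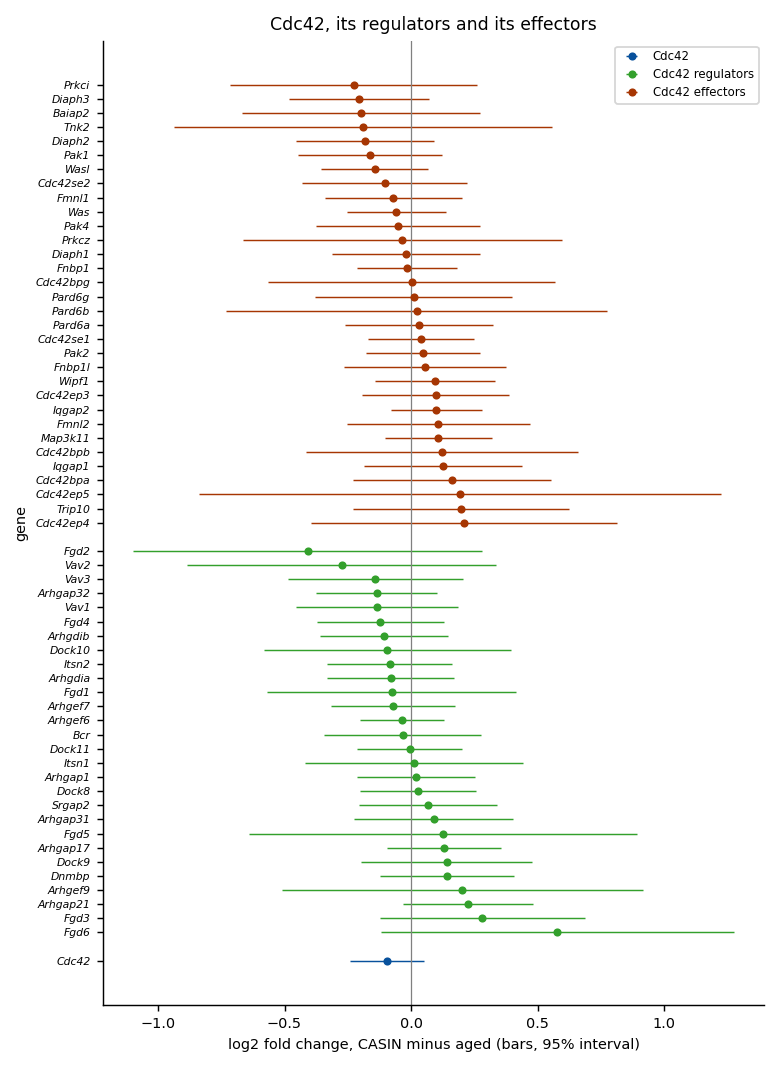
Log2 fold change between CASIN and aged cells (x axis) of Cdc42 and each of its tested regulators and effectors (y axis), with points for the edgeR estimate and bars for the 95% interval. The intervals of Cdc42, all 28 regulators and all 32 effectors include 0.

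The immediate early genes stood lower in CASIN cells. A negative log2 fold change was found for 7213 of the 13696 genes tested, and for 32 of the 35 genes on this list, all tested. For 17 the unadjusted p was below 0.05, all of them lower in CASIN, against 1.77% of all genes, and 0 passed after adjustment over all genes. The median log2 fold change was -0.43 over the list and -0.01 over all genes. The list lay on the same side in each batch, with a median of -0.26 in batch 1 and -0.50 in batch 2. A CASIN library can be set against an aged library of its own batch in 4 pairs, and 14 of the 35 genes were lower in all 4, against 10.1% of all genes. Another 13 genes were lower in 3 pairs and 8 in 2, and none was lower in fewer than 2. Both pairs of batch 1 hold aged replicate 1, and both pairs of batch 2 hold CASIN replicate 3. The pairs are therefore not independent, and the genes of a list are not independent replicates. The summed level of the list was 13594, 8790 and 6268 CPM in aged libraries and 12254, 12159 and 4594 CPM in CASIN libraries. Aged replicate 1 was thus the highest and CASIN replicate 3 the lowest. Each of these is the only library of its group in its batch, so the direction within each batch rests on it. Batch 1 is the higher batch for this list, so that CASIN is below aged within each batch although the ranges of the groups overlap. Against the young, which had 7899, 8929 and 3729 CPM, 17 of the 35 genes passed the test as higher in aged cells and 3 as higher in CASIN cells, against 3.31% and 3.37% of all genes. These contrasts share libraries with each other and with CASIN against aged, and their difference is not a further test. The list depended on the batch term, without which its median was -0.026. It was -0.27 without aged replicate 2, and without CASIN replicate 3 it was -0.30 with 6 genes lower at an unadjusted p below 0.05.

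Jund (chr8:70698949-70700616, plus strand), a subunit of the transcription factor AP-1, had the smallest unadjusted p of the list. It was at 1709, 1206 and 1230 CPM in aged and at 1502, 1381 and 873 CPM in CASIN libraries, with 840, 875 and 609.5 CPM in the young. The log2 fold change was -0.35 (standard error 0.08, 95% interval -0.53 to -0.17, unadjusted p = 0.00155, adjusted p = 0.986 in edgeR), with -0.25 in batch 1 and -0.48 in batch 2. The other AP-1 subunits had larger and less certain differences. Fos was at 2453, 136 and 43.5 CPM in aged and at 2612, 2058 and 22.1 CPM in CASIN libraries (-1.15 ± 0.51, unadjusted p = 0.0506), nearly all of it from batch 2, where the gene was low. Junb was at 1356, 809 and 445 CPM in aged and at 1106, 1141 and 317 CPM in CASIN libraries (-0.71 ± 0.25, unadjusted p = 0.0186 in edgeR). Within each batch CASIN was lower for Junb, while for Fos CASIN replicate 1 lay above aged replicate 1. Genes of this list other than Jund, Mcl1, Csrnp1, Nr4a1, Nr4a2 and Klf6 are named here after their values were seen.

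The orphan nuclear receptors Nr4a1 and Nr4a2, which restrain stem cell proliferation, had CASIN levels below the aged ones. The study had reported both as lower after CASIN in cell clusters of these same libraries, and Dnajb1, Hspa5 and Edem2 likewise. The direction of these genes here is therefore no separate support. Nr4a1 (chr15:101254269-101274795, plus strand) was at 386, 1122 and 481 CPM in aged libraries, at 258, 269 and 316 CPM in CASIN libraries and at 108, 149 and 228 CPM in the young. Every CASIN library lay below every aged library and above every young one. The log2 fold change was -0.92 (standard error 0.31, 95% interval -1.61 to -0.23, unadjusted p = 0.0143 in edgeR), with -0.55 in batch 1 and -1.22 in batch 2. For Nr4a2 the levels were 236, 491 and 208 CPM in aged and 154, 140 and 195 CPM in CASIN libraries, again with no overlap (-0.64 ± 0.32, unadjusted p = 0.0756 in edgeR). Over the list 4 genes had every CASIN library below every aged one, as had 1.1% of all genes. For Nr4a1, aged replicate 2 holds the highest value by far.

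**Figure D2:**
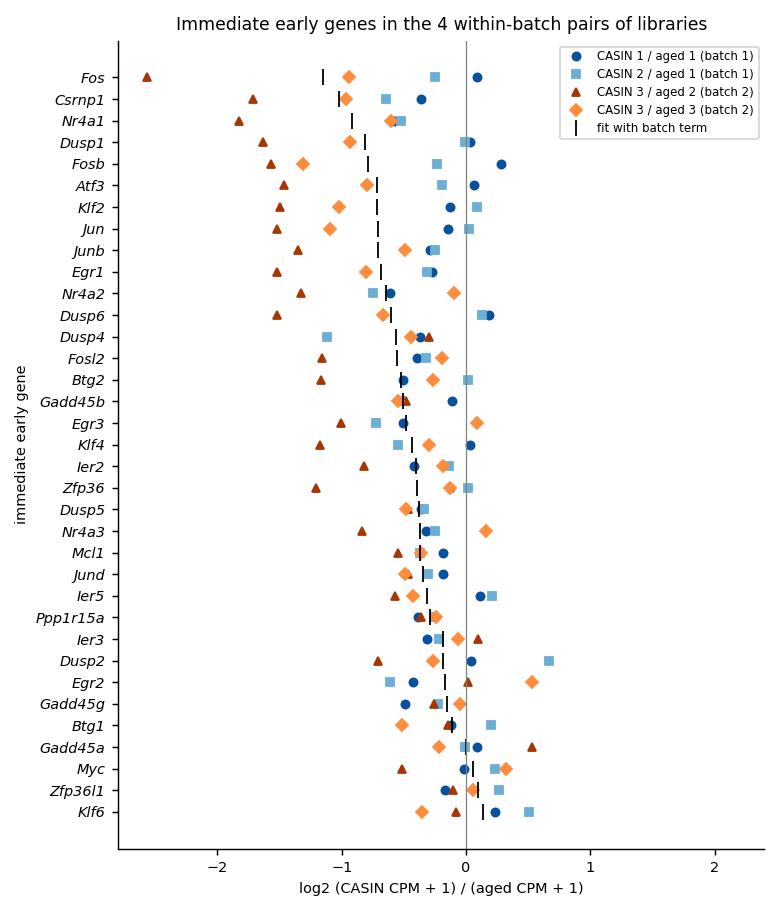
Ratio of CASIN to aged level, as log2 of CPM with 1 CPM added (x axis), for the 35 immediate early genes (y axis, ordered by the fitted log2 fold change, shown as a black tick), with 1 marker for each of the 4 pairs of libraries within a batch. The pairs of batch 2 reach further to the left than those of batch 1, and for 14 genes all 4 markers lie below 0.

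Further genes of the list sit between these. Csrnp1, a nuclear protein induced by axin and cytokines, was at 99.4, 125 and 74.0 CPM in aged and at 77.1, 63.3 and 37.5 CPM in CASIN libraries (-1.02 ± 0.25, unadjusted p = 0.00267). Mcl1, the anti-apoptotic Bcl2 relative that stem cells depend on, was at 543, 482 and 426 CPM in aged and at 477, 419 and 330 CPM in CASIN libraries (-0.37 ± 0.09, unadjusted p = 0.00213 in edgeR). For both, CASIN was lower in all 4 pairs. At the other end, Klf6, a zinc finger factor, was the member with the smallest p among those above 0, at 162, 169 and 205 CPM in aged and 190, 231 and 160 CPM in CASIN libraries (0.14 ± 0.17, unadjusted p = 0.421), and Myc was at 82.9, 15.2 and 8.07 CPM in aged and 81.9, 97.5 and 10.3 CPM in CASIN libraries (0.05 ± 0.22).

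Many immediate early genes are switched on through the cAMP response element, the palindrome TGACGTCA bound by the factor CREB. In the RefSeq promoters of GRCm38.p6, taken as the 250 bases before and 50 after a gene's start, 30 of the 35 genes had an entry, and the letters TGACGTCA, searched on both strands, were found in 3 of these 30 genes (10%) and in 1.79% of all 32851 promoters. The list is counted by gene, with a match in any of its promoters, and the background by promoter. A gene with several promoters thus has more chances of a match. The 3 sites are printed as the matches of this search, and the other genes of the list with an entry had none. The search does not show which regulatory DNA the list shares. The element is in capitals, with 20 bases on each side, on the minus strand, which is the coding strand of all 3 genes.
Btg2, chr1:134079294-134079341: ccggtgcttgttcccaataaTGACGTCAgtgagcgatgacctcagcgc
Ppp1r15a, chr7:45526253-45526300: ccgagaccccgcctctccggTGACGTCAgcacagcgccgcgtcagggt
Dusp1, chr17:26508588-26508635: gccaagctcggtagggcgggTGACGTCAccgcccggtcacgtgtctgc

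The site is shared by genes with different values. Btg2, an antiproliferative factor, was at 286, 224 and 120 CPM in aged and at 201, 290 and 99.3 CPM in CASIN libraries (-0.52 ± 0.26, unadjusted p = 0.073 in edgeR). Ppp1r15a, the phosphatase subunit that restores translation after stress, was at 302, 71.1 and 65.5 CPM in aged and at 231, 253 and 55.2 CPM in CASIN libraries, lower in all 4 pairs (-0.29 ± 0.09, unadjusted p = 0.0117). Dusp1, a phosphatase that ends MAP kinase signals, was at 302, 110 and 67.3 CPM in aged and at 308, 301 and 34.8 CPM in CASIN libraries (-0.81 ± 0.33, unadjusted p = 0.0341), with a batch 1 value of 0.01. A match is a description of the letters in these windows.

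The share of cells with stem cell markers moved between libraries as well. Cells with a UMI of Procr, Hlf or Mecom and none of Flt3 or Dntt made up 69.4%, 47.0% and 48.2% of the aged and 54.0%, 49.8% and 65.1% of the CASIN cells. Among these marker-selected cells alone, the median of the 35 immediate early genes was -0.41, with 30 negative and 8 genes lower at an unadjusted p below 0.05, against 1.70% of all genes tested in these cells. Among cells with Flt3 or Dntt and none of the 3 stem cell markers, which were 2.25% to 12.9% of the cells, the median was -0.51, with 30 of the 33 genes tested negative and 15 lower at an unadjusted p below 0.05, against 4.00% of all genes tested there. The median of the list lay below 0 in both of these marker-selected fractions. They do not make up all kept cells, since cells with markers of both kinds or of neither were in neither fraction. The fraction with Flt3 or Dntt was small, with 62, 132 and 98 cells in aged and 47, 233 and 55 cells in CASIN libraries. This split was chosen after the list had been seen.

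Genes of the heat shock response and of protein folding leaned the same way. Among cytosolic heat shock genes 19 of 22 were negative, against 7213 of all 13696 genes tested, with a list median of -0.27. In edgeR 3 were lower at an unadjusted p below 0.05, against 1.77% of all genes. In all 4 pairs 5 were lower, or 22.7% against 10.1% of all genes. Dnajb1, the Hsp40 co-chaperone of Hsp70, had the smallest p of the list. It was at 209, 122 and 89.9 CPM in aged and at 167, 159 and 68.1 CPM in CASIN libraries (-0.55 ± 0.14, 95% interval -0.88 to -0.23, unadjusted p = 0.00398 in edgeR). In the same 300-base promoters, 10 of the 18 heat shock genes with an entry (55.6%) held GAANNTTC, the core of the heat shock element, against 7.86% of all promoters, and Dnajb1 had no match. Here too the list is counted by gene and the background by promoter. The list was not alike in its batches, with medians of -0.09 in batch 1 and -0.31 in batch 2.

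In the endoplasmic reticulum list 22 of 33 genes were negative, against 7213 of all 13696 genes tested. The median of the list was -0.15 (0.02 in batch 1 and -0.22 in batch 2). Atf4, the factor that drives the amino acid and stress response, was at 169, 403 and 412 CPM in aged and at 141, 140 and 339 CPM in CASIN libraries, lower by the same -0.27 in each batch (-0.25 ± 0.07, unadjusted p = 0.007 in edgeR). Chac1, a target of Atf4 that degrades glutathione, had the opposite sign (1.42 ± 0.52, unadjusted p = 0.0222 in edgeR). In batch 2 it was at 11.3 and 16.7 CPM in aged replicates 2 and 3 and at 31.1 CPM in CASIN replicate 3. Young replicate 3, also of batch 2, had 29.4 CPM, and all libraries of batch 1 were below 1 CPM. Hspa5, the chaperone of the endoplasmic reticulum lumen, was at 365, 1356 and 1998 CPM in aged and at 332, 234 and 1159 CPM in CASIN libraries (-0.58 ± 0.27, unadjusted p = 0.0619). Hspa5 varied more between the batches than between the groups. Edem2, which marks misfolded glycoproteins for degradation, was at 61.8, 66.9 and 65.8 CPM in aged and at 59.8, 57.0 and 54.6 CPM in CASIN libraries (-0.23 ± 0.11, unadjusted p = 0.0576 in edgeR). Every CASIN library lay below every aged one, as for 1.1% of all genes. The log2 fold change of Edem2 was -0.08 in batch 1 and -0.28 in batch 2, and -0.02 for aged against young.

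Inflammatory genes were uneven between the batches. Over all genes tested 7213 of 13696 were negative, and 1.77% were lower at an unadjusted p below 0.05 in edgeR. Of 28 genes of the NF-kB and IL-1 list 24 were negative, with a median of -0.30, and 5 were lower at that limit. The batch 1 median of this list was 0.00 and that of batch 2 -0.44. Il1b, the cytokine interleukin 1 beta, had the smallest p, at 0.335, 6.29 and 1.94 CPM in aged and 0.0569, 0.202 and 0.548 CPM in CASIN libraries (-2.47 ± 0.69, unadjusted p = 0.00551 in edgeR), a level of few molecules. Neutrophil and monocyte markers, which can bring Il1b with them, had a summed level of 41.5, 84.4 and 448 CPM in aged and 8.99, 85.1 and 94.0 CPM in CASIN libraries, and 7 of their 10 genes were tested. Their part in this result was not tested. Granule and myeloid priming genes had a median of -0.37 with 19 of 23 negative, and their batches were on opposite sides (0.13 and -0.80). Of 37 interferon response genes, 26 were negative, with a median of -0.10, and their batch medians were also on opposite sides (0.09 and -0.20).

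Nuclear genes of oxidative phosphorylation differed little in size. Of 93 genes 83 were negative, against 7213 of all 13696 genes tested. Yet the median of the list was -0.07, none of the 93 had an unadjusted p below 0.05 in edgeR and 85 of their intervals lay within 0.5. In all 4 pairs 23 of them were lower, or 24.7% against 10.1% of all genes. The 13 protein-coding genes of the mitochondrial genome had a median of 0.06. They were read from cells chosen for a low mitochondrial share. Cytoplasmic ribosomal protein genes had a median of 0.02 over 83 genes, with 81 intervals within 0.5.

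**Figure D3:**
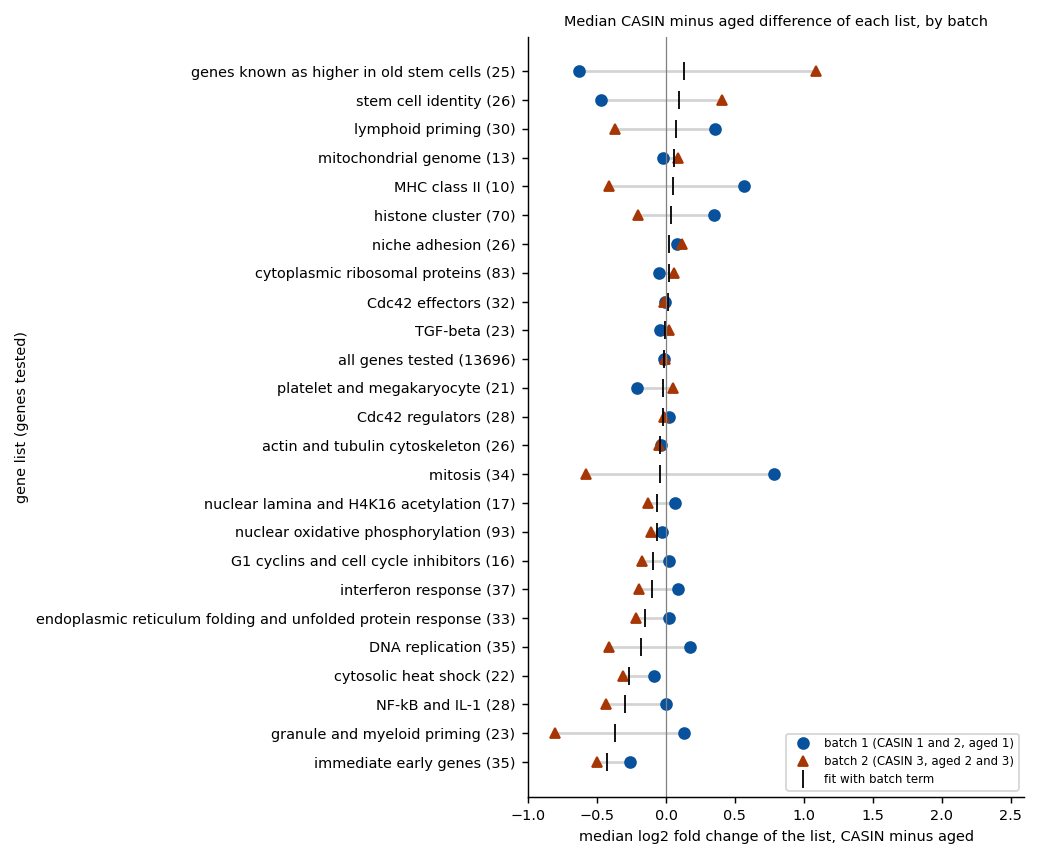
Median log2 fold change between CASIN and aged cells (x axis) of the gene lists plotted, without cell type markers, and of all genes tested (y axis, number of genes in brackets), with circles for batch 1, triangles for batch 2 and black ticks for the fit with a batch term. The immediate early genes are lowest in the fit (-0.43), and mitosis (0.78 and -0.58) and genes known as higher in old stem cells (-0.63 and 1.09) differ most between the batches.

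The 10 genes lower in CASIN with the smallest unadjusted p, among those of at least 10 CPM that were lower in all 4 pairs, are a description, since the pairs chose them. Besides Jund, Mcl1 and Csrnp1 they were Trib1, Sertad1, Il11, Rrad, Fam110a, Zbtb10 and Hilpda. Trib1, a pseudokinase that degrades the myeloid factor C/EBP alpha, was at 34.8, 114 and 103 CPM in aged and at 29.0, 23.8 and 70.4 CPM in CASIN libraries, with 18.2, 21.4 and 60.1 CPM in the young (-0.51 ± 0.11, unadjusted p = 0.00122). Sertad1, a cofactor of cyclin D and Cdk4, was at 56.5, 182 and 140 CPM in aged and at 44.7, 41.3 and 108 CPM in CASIN libraries (-0.50 ± 0.11). Il11, a cytokine of the interleukin 6 family, was below 1 CPM in batch 1 and at 51.4 and 49.1 CPM in aged against 29.7 CPM in CASIN replicate 3 (-0.79 ± 0.18). Hilpda, a lipid droplet protein induced by low oxygen, was at 64.3, 75.9 and 50.8 CPM in aged and at 41.1, 50.2 and 36.9 CPM in CASIN libraries (-0.68 ± 0.17). Every CASIN library lay below every aged one, as for 1.1% of all genes. The small GTPase Rrad, Fam110a and the zinc finger gene Zbtb10 had log2 fold changes of -0.53, -0.62 and -0.48. Of the 10, 9 had passed the test as higher in aged than in young cells, as had 3.31% of all genes, and Zbtb10 had not (adjusted p = 0.623 in edgeR). The aged libraries are on both sides of that statement, so that it is no separate support.

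On the other side, the 10 genes chosen by the same rule as higher in CASIN were Iglc1, Pink1, Sesn2, Clic4, Tbxa2r, Zfp652, 4930481A15Rik, Alkbh8, Mid1 and Kif21b. Iglc1, a constant region of immunoglobulin light chains, had the smallest p of all genes (3.83 ± 0.73, unadjusted p = 0.000514) and rests on CASIN replicate 3, at 710 CPM against 1.99 and 5.00 CPM in the other CASIN libraries and 0.726, 10.9 and 75.2 CPM in the aged. Its share of the summed B cell and plasma cell RNA given above was not tested. Pink1, the kinase that marks damaged mitochondria for removal, was at 26.5, 54.4 and 56.7 CPM in aged and at 34.9, 33.9 and 67.0 CPM in CASIN libraries (0.32 ± 0.07, 95% interval 0.15 to 0.49, unadjusted p = 0.00198 in edgeR). Sesn2, a stress-induced inhibitor of mTORC1, was at 3.07, 17.5 and 19.4 CPM in aged and at 3.87, 4.04 and 27.6 CPM in CASIN libraries (0.56 ± 0.14), and Clic4, a chloride channel protein, was at 20.8, 88.2 and 90.4 CPM in aged and at 24.9, 28.0 and 107 CPM in CASIN libraries (0.33 ± 0.09). Tbxa2r, the thromboxane receptor, was at 20.3, 9.68 and 6.64 CPM in aged and at 23.0, 27.4 and 16.6 CPM in CASIN libraries (0.69 ± 0.20). The other 5 had log2 fold changes of 0.34 to 0.81.

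**Figure D4:**
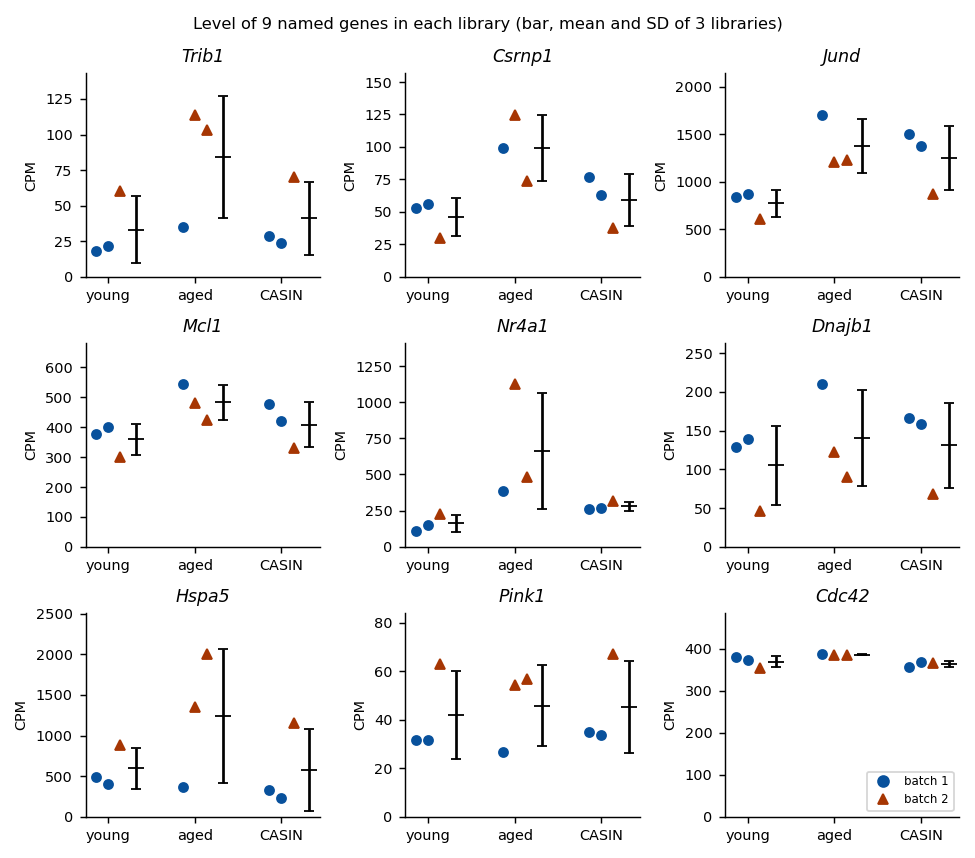
TMM-normalised CPM (y axis, from 0) of 9 named genes in each young, aged and CASIN library (x axis), with circles for batch 1, triangles for batch 2 and a bar for the mean and SD of 3 libraries. Nr4a1 is at 386 to 1122 CPM in aged and at 258 to 316 CPM in CASIN libraries, and Cdc42 stays between 354 and 387 CPM in all 9.

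For other programmes the difference between CASIN and aged cells turned with the batch. Across the 13696 genes, the batch 1 and batch 2 log2 fold changes had a Pearson correlation of -0.28 and a Spearman correlation of -0.25, and 43.2% of the genes had the same sign. Genes are not independent replicates, and within each batch all pairs share a library, so these are descriptions. Genes known as higher in old stem cells were opposite in 23 of 25 cases, lower in CASIN in batch 1 and higher in batch 2, as were 29.4% of all genes, with medians of -0.63 and 1.09 and a fitted median of 0.13. Their summed level was 1594, 729 and 720 CPM in aged and 1096, 1041 and 1195 CPM in CASIN libraries, against 127, 127 and 349 CPM in the young. Aged replicate 1 was thus the highest, and the 3 CASIN libraries lay between it and the other aged libraries. Selp, the adhesion molecule P-selectin, was at 88.2, 67.4 and 68.6 CPM in aged and at 55.1, 50.5 and 84.3 CPM in CASIN libraries (-0.14 ± 0.33), and Fyb, an adaptor of immune cell adhesion, at 73.8, 49.1 and 48.1 CPM against 73.5, 67.2 and 57.4 CPM (0.10 ± 0.09). Of the 25 genes 19 passed as higher in aged than in young cells, and 20 passed as higher in CASIN than in young cells, against 3.31% and 3.37% of all genes. The stem cell identity list was opposite in the same sense for 24 of 26 genes, with medians of -0.47 and 0.41. Procr, the stem cell marker EPCR, was at 105, 123 and 122 CPM in aged and at 81.3, 62.8 and 125 CPM in CASIN libraries (-0.23 ± 0.15).

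Cell cycle genes went the other way. All 34 mitosis genes tested were higher in CASIN in batch 1 and lower in batch 2, as were 27.4% of all genes, with medians of 0.78 and -0.58 and a fitted median of -0.04. Their summed level was 778, 1461 and 1215 CPM in aged and 1151, 1400 and 961 CPM in CASIN libraries, so that aged replicate 1 and CASIN replicate 3 were the lowest. Each of these is the only library of its group in its batch. DNA replication genes were alike, with 34 of 35 higher in batch 1 and lower in batch 2 and a fitted median of -0.18, and so were lymphoid priming genes (21 of 30) and MHC class II genes (8 of 10). Cyclins of the G1 phase were bounded more closely: Ccnd1 was at 50.5, 29.6 and 26.5 CPM in aged and at 47.0, 31.8 and 22.5 CPM in CASIN libraries (-0.38 ± 0.16, unadjusted p = 0.0388 in edgeR), and Ccnd3 at 107, 90.3 and 91.6 CPM against 108, 113 and 119 CPM, with no overlap (0.22 ± 0.09, unadjusted p = 0.0309). By batch, Ccnd1 was at -0.38 in batch 1 and -0.32 in batch 2, but Ccnd3 at 0.04 and 0.39. For Ccnd3 the unadjusted p for the difference between the batches was 0.0454 in edgeR. Its lack of overlap rests on 107.0 CPM in aged replicate 1 against 107.7 CPM in CASIN replicate 1. Over all genes every CASIN library was above every aged one for 0.993%, and CASIN was higher in all 4 pairs for 8.09%.

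A test of whether the CASIN difference depended on the batch called 0 of 13696 genes (0%) in edgeR, with a smallest adjusted p of 0.0806, while 1786 genes (13%) had an unadjusted p below 0.05. Among the mitosis genes 32 of 34 were below that limit, among the genes known as higher in old stem cells 18 of 25, among the stem cell identity genes 18 of 26 and among the immediate early genes 11 of 35. Top2a, the topoisomerase of dividing cells, was at 81.1, 199 and 171 CPM in aged and at 141, 150 and 119 CPM in CASIN libraries, with a log2 fold change of 0.84 in batch 1 and -0.64 in batch 2 (adjusted p = 0.0849 for the difference between the batches, edgeR). It was named after its value was seen.

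**Figure D5:**
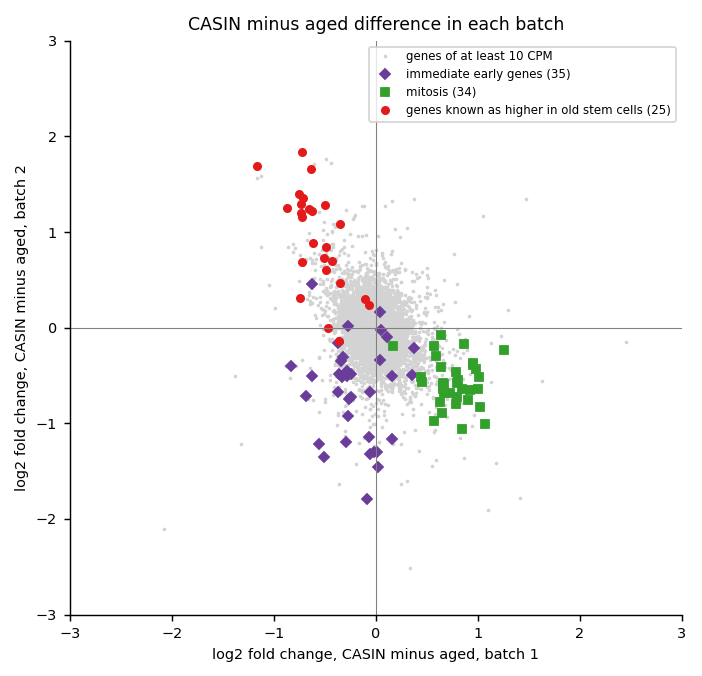
Log2 fold change between CASIN and aged cells in batch 1 (x axis) against that in batch 2 (y axis) for the 7947 genes of at least 10 CPM (grey, 3 outside the axes), with 3 gene lists in colour. Mitosis genes lie at the lower right, genes known as higher in old stem cells at the upper left, and most immediate early genes below 0 in batch 2.

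Stromal and endothelial markers were at 92.7, 7.08 and 5.44 CPM in aged and 80.6, 82.4 and 13.2 CPM in CASIN libraries. One of them, the leptin receptor gene Lepr, had an unadjusted p below 0.05 (1.82 ± 0.59, unadjusted p = 0.0122 in edgeR), at 1.17, 0.572 and 0.277 CPM in aged and at 5.97, 6.66 and 0.514 CPM in CASIN libraries. T and NK cell markers summed to 11.7 to 20.3 CPM, macrophage markers to 0.398 to 5.53 CPM, red cell markers to 14.4 to 48.5 CPM and mast cell and basophil markers to 7.68 to 23.8 CPM in the 6 libraries.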

How the data were processed

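The authors aligned the reads to mm10 (GRCm38) with Cell Ranger 3.1.0, called barcodes and deposited UMI counts per gene and barcode, without normalization. Barcodes were kept by the limits given in the report, and counts were summed per library. Genes passing filterByExpr were fitted with edgeR 4.0.16 (TMM, quasi-likelihood test) in R 4.3.3 on all 9 libraries with group and sequencing batch as terms, and Benjamini-Hochberg adjustment ran over 13696 genes, with a threshold of 0.05. Standard errors and intervals come from the same fit. Values within a batch are differences of log2 CPM with a prior count of 2. Kept totals of 17562903 to 28345634 UMIs limit the precision of genes of few counts.

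Gene lists hold 885 genes, of which 830 were tested, and 1 list is not reported here. Named genes were those called, the 10 with the smallest unadjusted p in each direction with at least 10 CPM and 4 pairs in 1 direction, 9 genes of the study's themes, and the member of each list with the smallest p in each direction. Among the 9 are Nr4a1, Nr4a2, Dnajb1, Hspa5 and Edem2, which the study had reported as lower after CASIN in the same libraries. The groups and lists were chosen with earlier results of these data known. Alternatives used DESeq2 1.42.0, limma 3.58.1 and Scrublet in scanpy 1.11.5, which marked 92 barcodes as doublets that were kept in the report. Promoter sequences are those of RefSeq. The gene test was tested on simulated data. These were drawn with no batch difference and no CASIN difference that changed with the batch. They therefore do not show how the test behaves where the batches differ, as they do here.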

Additional observations from a re-analysis of the deposited data

Results flagged for a closer look

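For 12 gene lists the summed level was higher in CASIN in every pair of 1 batch and lower in every pair of the other, and each difference, batch 2 minus batch 1 of the mean log2 ratio, was not tested. It was 1.3 for genes known as higher in old stem cells, 0.64 for stem cell identity, 0.59 for platelet and megakaryocyte genes and 0.12 for cytoplasmic ribosomal proteins. It was -1.18 for mitosis, -0.93 for MHC class II, -0.65 for lymphoid priming, -0.56 for DNA replication, -0.3 for the nuclear lamina and H4K16 acetylation list, -0.23 for G1 cyclins and cell cycle inhibitors, -0.15 for Cdc42 regulators and -0.05 for the actin and tubulin cytoskeleton.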

How the results depend on the processing

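The count of 0 genes between CASIN and aged cells was also obtained with limma-voom, DESeq2 size factors, no filter, only the 6 libraries, no batch term and the other cell filters. It became 1 with the DESeq2 test (Ighv1-26), 1 without CASIN replicate 1 (Ighv5-4; 0 to 1 over libraries left out) and 1 in cells with Flt3 or Dntt (Ighg2b), all immunoglobulin genes. Unadjusted counts ran from 44 without a batch term to 2405 without aged replicate 1. The median of the immediate early genes was -0.026 without a batch term and -0.15 with the replicate block, and -0.55 to -0.27 over libraries left out (-0.27 without aged replicate 2, -0.55 without aged replicate 3 and -0.30 without CASIN replicate 3, where 6 genes were lower at an unadjusted p below 0.05). Without aged replicate 1 the mitosis median was -0.55 and that of genes known as higher in old stem cells 1.35, and without CASIN replicate 3 they were 0.30 and -0.01.

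Deviations of aged and CASIN libraries from their group means correlated by 0.80, -0.58 and 0.82 for the same replicate number. These deviations hold the batch difference. Aged replicate 1 with CASIN replicate 2 and aged replicate 2 with CASIN replicate 3, of the same batch, correlated by 0.69 and 0.68. The aged and CASIN libraries numbered 2 lie in different batches. The check therefore cannot decide whether the replicate numbers pair the samples. With the replicate block as a term, 0 genes were called between CASIN and aged and 0 between aged and young.

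The 517 genes between aged and young became 1131 with the DESeq2 test, 857 without a filter, 0 without a batch term, 290 and 1044 with a mitochondrial limit of 5% or none, 1013 in cells with Procr, Hlf or Mecom and 0 in those with Flt3 or Dntt, and 14 to 870 over libraries left out (14 without young replicate 1, 28 without young replicate 2, 870 without young replicate 3, 167 without aged replicate 1, 160 without CASIN replicate 1). The test of the CASIN difference between batches called 131 genes with DESeq2, 421 without a filter and 0 to 84 over libraries left out (84 without aged replicate 3, 19 without aged replicate 2), and could not be fitted without young replicate 3, aged replicate 1 or CASIN replicate 3.

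The CASIN minus aged difference in the percent of barcodes kept was 8.71 with the batch left out (-11.8 in batch 1 and 5.30 in batch 2) and -7.54 without a mitochondrial limit. The difference in median UMIs was -1739.5 and that in median genes -230.2 with a limit of 5%, and over libraries left out they ran from -949.8 to 1213.4 and from -206.5 to 170.2. Of 91 named genes 34 had an unadjusted p below 0.05, and 7 of these changed sign. Without a batch term and with the replicate block, respectively, the log2 fold changes were -0.019 and -0.038 for Pink1, -0.17 and -0.60 for Sesn2, -0.31 and -0.49 for Clic4 and -0.058 and -0.24 for Kif21b, and Chac1 was at -1.94 with the block. Iglc1 was at -0.040 in cells with Procr, Hlf or Mecom and -2.89 in those with Flt3 or Dntt, where Rrad was at 0.52. The residual filter on natural logs and the splits of cells by marker were chosen after seeing the data. The causes were not tested. Depth limits genes of few counts: intervals lay within 0.5 for 50.8% of all genes but 85.7% of those above 100 CPM.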
